A study of Mus musculus with 16 samples.

Results

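The immediate early genes are transcribed within minutes of a stimulus, before any new protein has been made, and most of their products are transcription factors. The levels of 10 of them were read in the CD11b+ cells of the mouse brain by their names in the deposited count table: the AP-1 genes Fos, Fosb, Jun, Junb, Jund and Atf3, the zinc finger factor Egr1, the nuclear protein gene Ier2, the orphan nuclear receptor Nr4a1, and Btg2, which codes for an antiproliferative protein. All 10 were found among the 24421 rows of the table, and all 10 were among the 14565 genes that passed the filter of more than 10 counts in at least 4 libraries.

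The libraries came from female C57BL/6J mice that were weaned onto 1 of 2 diets and kept there for 1 month. CON mice (4 libraries) ate standard chow, MAL mice (5 libraries) ate an isocaloric diet low in protein and fat, and MAL-BG mice (7 libraries) ate the same malnourished diet and were gavaged repeatedly with a mix of E. coli and Bacteroidales species. Per the study's methods, CON and MAL mice were gavaged with PBS, so gavage itself was shared by all 3 groups. By design, CON differed from MAL in diet, MAL from MAL-BG in bacteria, and CON from MAL-BG in both. The code of the study fits a batch term, but the batch of each library is not given in the sources used here, so batch and group could not be separated in these comparisons. Microglia and other myeloid cells carry CD11b on their surface, and cells with it were pulled down with magnetic beads after enzymatic dissociation of the brain. The labels name cortical tissue as the source, whereas the methods name whole cerebra. Each library is listed as a separate sample without naming its mouse, so p-values measure the spread between these samples. Libraries carry the running number of their column (CON 1, MAL 1 and so on), which matches no sample title.

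In resting cells the genes of this class are held at a low level, and kinase cascades acting through the factors SRF, TCF and CREB switch them on. Fos proteins pair with Jun proteins, and the pair, called AP-1, binds a short palindromic DNA site. JunD is the Jun protein usually present in unstimulated cells. Egr1 and Nr4a1 bind sites of their own, Atf3 can pair with Jun proteins, and Btg2 joins the deadenylase that shortens the poly(A) tails of mRNAs. In microglia, as in other cells, these genes are also known to respond to the isolation of the cells, so a level in sorted or bead-enriched cells need not be that of the living tissue. How much of each level arose during isolation was not tested.

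The promoters of these genes are known for CREB sites. The letters TGACG, the core of such a site, were searched on both strands of the 250 bases before each start in the RefSeq annotation of GRCm38.p6, in a table that held 8 of the 10 genes (not Egr1 and Ier2). They occurred in 6 of the 8 promoters (Fos, Fosb, Junb, Atf3, Nr4a1 and Btg2) and in 17.8% of 32851 promoter windows of the same length. Jun and Jund held no copy of these letters in this window. The full palindrome TGACGTCA, which contains TGACG on each strand, occurred only in Btg2 among the 8, and in 1.55% of all windows. The AP-1 letters TGANTCA occurred in 0 of the 8 and in 6.75% of all windows. The Egr letters GCGNGGGCG occurred in Fosb, Nr4a1 and Btg2, and in 4.7% of all windows. The Fosb window precedes a start inside the annotated gene, and its TGACG and Egr matches lie within that gene. A match is a string of letters and not a measured binding site.

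Promoters of 4 genes are printed because they hold the CREB letters closest to the start (Atf3), in the largest number (Nr4a1), as the full palindrome (Btg2), and in the gene of the Fos protein itself (Fos). Capitals mark TGACG, or CGTCA where it lies on the other strand, and each line runs 5′ to 3′ on the strand of the gene. The Fos sequence is chr12:85473640-85473889 (plus strand), with matches that begin 129 and 66 bases before the start. The Atf3 sequence is chr1:191183334-191183583 (minus strand), with a match that begins 7 bases before the start. The Nr4a1 sequence is chr15:101266596-101266845 (plus strand), which precedes a downstream start within the annotated gene, and its 4 matches begin 233, 213, 69 and 40 bases before that start. The Btg2 sequence is chr1:134079156-134079405 (minus strand), with the palindrome beginning 166 bases before the start.
Fos: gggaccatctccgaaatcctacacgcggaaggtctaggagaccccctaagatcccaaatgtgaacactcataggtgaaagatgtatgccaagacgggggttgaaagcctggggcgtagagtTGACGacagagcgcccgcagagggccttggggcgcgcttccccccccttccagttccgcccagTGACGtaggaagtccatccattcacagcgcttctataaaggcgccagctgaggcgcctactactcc
Atf3: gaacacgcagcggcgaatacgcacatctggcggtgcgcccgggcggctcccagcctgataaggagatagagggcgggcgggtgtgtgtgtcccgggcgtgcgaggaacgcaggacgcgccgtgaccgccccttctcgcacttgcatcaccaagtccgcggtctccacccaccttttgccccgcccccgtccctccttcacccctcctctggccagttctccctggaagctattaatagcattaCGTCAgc
Nr4a1: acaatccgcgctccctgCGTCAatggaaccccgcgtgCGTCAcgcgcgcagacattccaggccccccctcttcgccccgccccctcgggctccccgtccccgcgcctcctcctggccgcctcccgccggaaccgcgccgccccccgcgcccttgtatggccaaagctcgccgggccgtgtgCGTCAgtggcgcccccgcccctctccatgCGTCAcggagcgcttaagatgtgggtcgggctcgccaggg
Btg2: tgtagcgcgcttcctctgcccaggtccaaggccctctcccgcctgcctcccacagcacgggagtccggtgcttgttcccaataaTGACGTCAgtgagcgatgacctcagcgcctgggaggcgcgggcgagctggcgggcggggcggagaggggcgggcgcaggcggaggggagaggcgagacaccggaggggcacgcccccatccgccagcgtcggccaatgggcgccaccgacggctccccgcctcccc

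Library totals ranged from 10312703 to 13461574 counts in CON, from 10864121 to 12819982 in MAL and from 14191791 to 18705202 in MAL-BG, and MAL-BG totals were the higher ones in exact permutation tests of mean totals, two-sided, against CON (p = 0.00606) and MAL (p = 0.00253). Levels are given as CPM, the counts of a gene scaled to a common library size after TMM normalization. Of 10 microglia markers, 6 rose in MAL-BG against CON and 0 fell, where 11.4% of all genes tested rose and 21.7% fell. The summed level of these markers was 35570 to 48490 CPM in MAL-BG, 16300 to 26770 in CON and 16840 to 29080 in MAL. Of 11 neutrophil markers, 10 rose in MAL-BG against CON, with a sum of 600 to 14300 CPM in MAL-BG against 489 to 1230 in CON. The sum passed the CON range only in MAL-BG 2, 5 and 7 (2670, 14300 and 3450 CPM). Csf3r, the marker that was not called, had a mean of 604 CPM in CON, where the mean sum was 730 CPM. All 7 neuron markers and all 5 choroid plexus markers fell, neurons from 91.3 to 459 CPM in CON to 13 to 30.1 CPM in MAL-BG, and choroid plexus from 10500 to 40400 CPM to 1440 to 12800 CPM. In bulk RNA of this kind, fewer cells of a type and less RNA per cell cannot be told apart, and the part of these markers in the results below was not tested.

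The 10 genes were among the most abundant transcripts of these cells. By mean CPM over all libraries, Jun ranked 12th of the genes tested, Junb 18th, Jund 23rd and Fos 26th, and the least abundant of the 10, Nr4a1, ranked 146th. Together they took 1.97% to 3.57% of all counts in CON (median 2.16%), 2.1% to 4.11% in MAL (median 3%) and 1.03% to 2.59% in MAL-BG (median 1.66%). The MAL-BG median was the lowest of the 3, and the ranges overlapped.

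**Figure D1:**
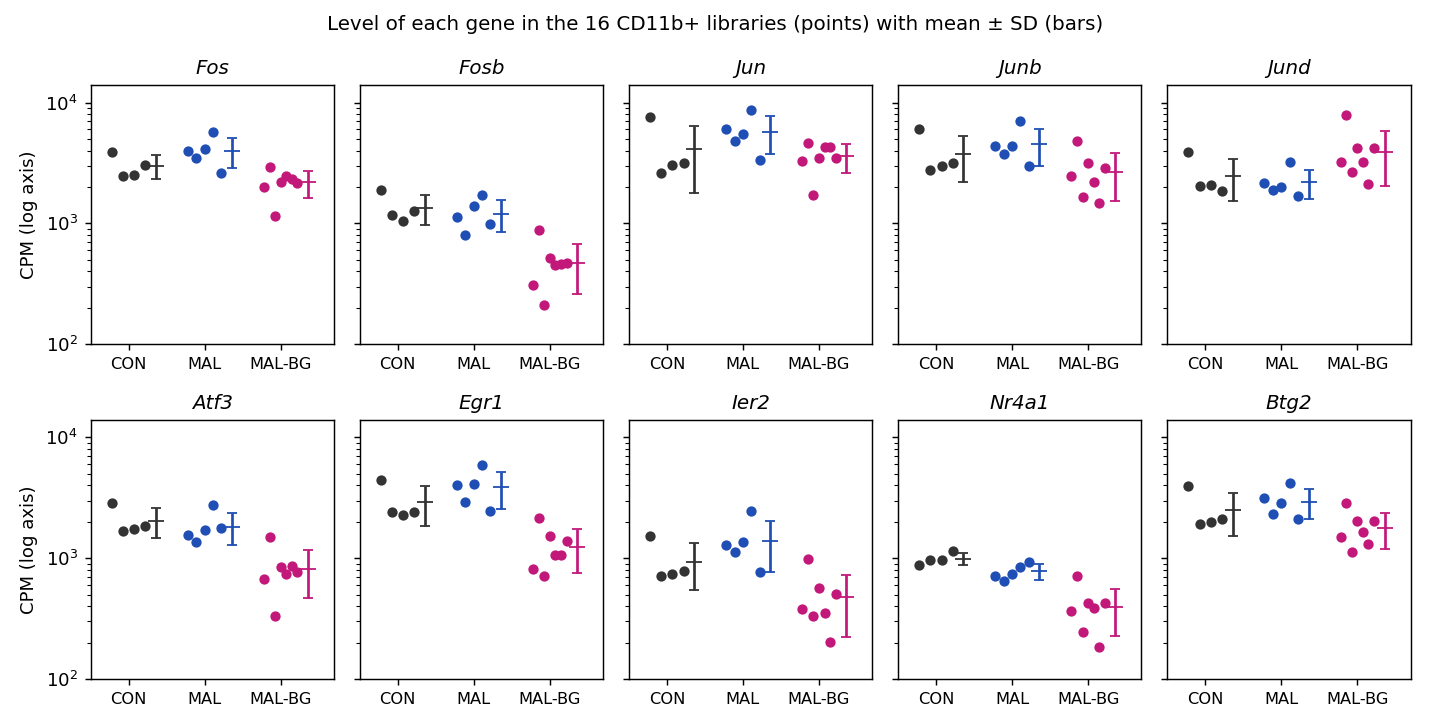
Level of each of the 10 genes in CPM (log axis) in each CON (n = 4), MAL (n = 5) and MAL-BG (n = 7) library, in the order of their numbers, with the mean ± SD beside the points. The 7 MAL-BG libraries lay below all 9 others for Egr1, and 6 of 7 did for Fos, Fosb, Atf3, Ier2 and Nr4a1, whereas Jund was higher in MAL-BG than in MAL (a direction that turned when libraries were scaled by microglia marker counts).

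Between MAL-BG and CON, which differed in diet and bacteria, 5 of the 10 genes fell and 0 rose. A gene was called where the adjusted p was under 0.05 and the absolute log2 fold change above 0.58 in the quasi-likelihood test of edgeR over all 14565 genes. The 5 that fell were Fosb, Nr4a1, Atf3, Egr1 and Ier2, by 1.97-fold to 2.86-fold. Of all genes tested, 33.1% were called in this comparison. The genes called lower in MAL-BG made up 21.7% of all genes tested. The median log2 fold change was -0.73 over the 10 genes and -0.04 over all genes tested.

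Between MAL-BG and MAL, which differed in bacteria, 8 of the 10 genes fell and Jund rose. Only Jun was not called. Of all genes tested, 30.4% were called, with 20.2% of all genes lower and 10.2% higher in MAL-BG. The median log2 fold change was -0.93 over the 10 genes and -0.03 over all genes. These comparisons share their MAL-BG libraries, so they are not independent of each other. The 5 genes that fell against CON also fell against MAL, and 18.2% of all genes tested were called lower against both.

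Between MAL and CON, which differed in diet, 0 of the 10 genes were called by edgeR, and 0% of all genes tested. None of the 10 had an unadjusted p under 0.05 here, against 212 of all genes tested, and DESeq2 also called 0 genes. Log2 fold changes of MAL against CON ran from -0.36 (Nr4a1) to 0.57 (Ier2), with adjusted p = 0.999 in edgeR for each of the 10. The MAL and CON libraries overlapped for all 10, and of all genes tested 0.302% had every MAL library below CON and 0.412% every MAL library above. Without CON 1, 1087 genes had an unadjusted edgeR p under 0.05, and 0 were called. The 10 genes then ran from -0.42 (Nr4a1) to 0.94 (Jun) on the log2 scale.

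**Figure D2:**
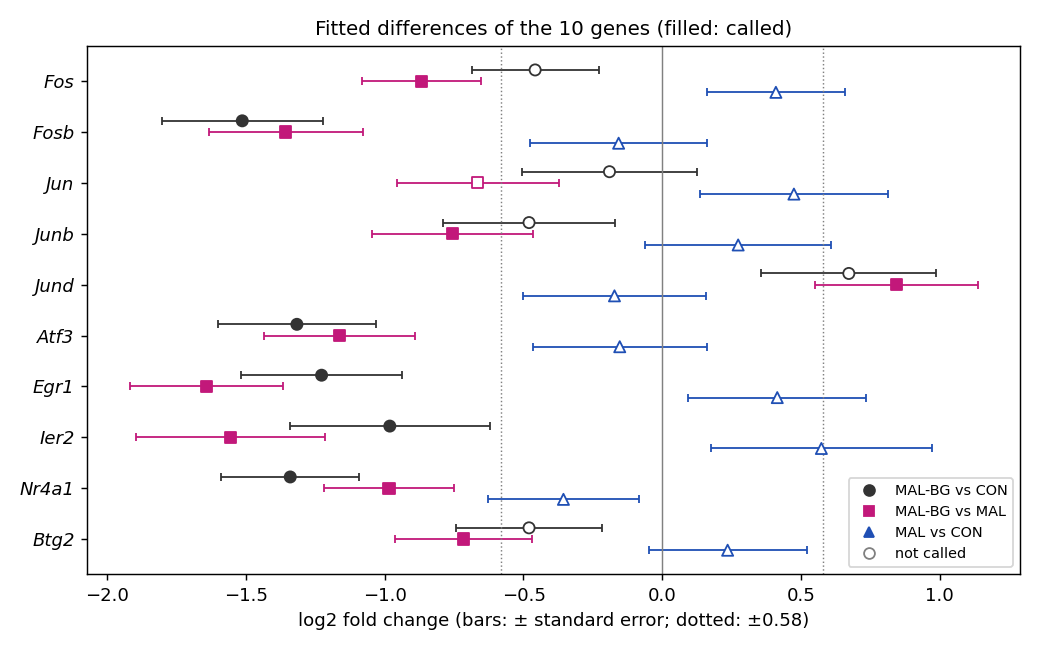
Log2 fold change of each gene in MAL-BG against CON (circles), MAL-BG against MAL (squares) and MAL against CON (triangles), with bars of ± 1 standard error of the edgeR fit and dotted lines at the fold threshold of 0.58 in either direction. Filled symbols are called: 5 genes lower against CON, and 8 lower and Jund higher against MAL (the sign of Jund turned when libraries were scaled by microglia marker counts), with no filled triangle.

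Fos (chr12:85473890-85477274, plus strand; gene positions throughout are from RefSeq, GRCm38.p6) codes for a partner of Jun proteins in AP-1. Its level was 3913, 2490, 2504 and 3072 CPM in CON 1 to 4, and 3982, 3464, 4164, 5680 and 2611 CPM in MAL 1 to 5. In MAL-BG it ran from 1150 to 2942 CPM with a median of 2205 CPM. All MAL-BG libraries but MAL-BG 2 were below every CON and MAL library. The fall against MAL was 1.83-fold (log2 fold change -0.87 ± 0.21 SE, edgeR adjusted p = 0.00397). Against CON the log2 fold change was -0.46 ± 0.23 SE, which was not called (edgeR adjusted p = 0.113). With offsets for length and GC content in the fit, Fos was called against CON as well (-0.66, adjusted p = 0.0251), and the number of the 10 genes called against CON was 7 in place of 5.

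Fosb (chr7:19302696-19310118, minus strand), a Fos paralog induced by the same stimuli, fell in both comparisons. It stood at 1888, 1176, 1038 and 1277 CPM in CON 1 to 4 and at 1126, 804, 1387, 1715 and 998 CPM in MAL 1 to 5. MAL-BG libraries ran from 210 to 880 CPM around a median of 462 CPM. No MAL-BG library reached the lowest CON library, and only MAL-BG 2 passed the lowest MAL library. Fosb fell 2.86-fold against CON (log2 fold change -1.51 ± 0.29 SE, edgeR adjusted p = 0.000681) and 2.56-fold against MAL (-1.36 ± 0.28 SE, adjusted p = 0.00109). Of the 10 genes, Fosb, Atf3, Egr1 and Nr4a1 had MAL-BG libraries that did not overlap CON, which held in that direction for 11.1% of all genes tested.

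The share of Fosb in the summed counts of Fos and Fosb does not depend on how libraries are scaled. It was 29.3% to 32.5% in CON, 18.8% to 27.7% in MAL and 13.3% to 23.0% in MAL-BG. CON was above both other groups without overlap, and MAL and MAL-BG overlapped. No test of this share was run, and how often shares of other genes lie apart between the groups was not counted.

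Atf3 (chr1:191170296-191183333, minus strand), a stress-induced member of the same family that can repress its targets, stood at 2866, 1684, 1734 and 1833 CPM in CON 1 to 4. In MAL 1 to 5 it was 1545, 1351, 1700, 2740 and 1786 CPM, and in MAL-BG it ran from 329 to 1487 CPM with a median of 762 CPM. The MAL-BG libraries lay below all CON libraries, and MAL-BG 2 was the single one to overlap MAL. Atf3 fell 2.49-fold against CON (log2 fold change -1.32 ± 0.29 SE, edgeR adjusted p = 0.00159) and 2.24-fold against MAL (-1.16 ± 0.27 SE, adjusted p = 0.00271).

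Of the Jun paralogs, 2 were called in a comparison, Junb in the lower and Jund in the higher direction (the latter turned with the scaling by microglia markers). Jun (chr4:95049036-95052222, minus strand), which codes for the Jun protein c-Jun, ran from 2626 to 7574 CPM in CON, from 3369 to 8744 CPM in MAL and from 1717 to 4658 CPM in MAL-BG. The groups overlapped, and Jun was called in neither comparison (log2 fold change -0.19 ± 0.31 SE, edgeR adjusted p = 0.645 against CON; -0.67 ± 0.29 SE, adjusted p = 0.0738 against MAL). Against CON the sign itself rested on CON 1, without which the log2 fold change was 0.27 (edgeR adjusted p = 0.451), and against MAL the gene was called without CON 1 (-0.67, adjusted p = 0.0302) and without MAL 5 (-0.81). It was also called against MAL with offsets for length and GC content (-0.77, adjusted p = 0.0394) and in a fit of these groups only (-0.67, adjusted p = 0.0472).

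Junb (chr8:84976909-84978748, minus strand), which shares partners with Jun but is a weaker activator, ran from 2790 to 5995 CPM in CON, from 3007 to 7048 CPM in MAL and from 1464 to 4852 CPM in MAL-BG. Of the MAL-BG libraries, 4 of 7 were below all CON and MAL libraries. Against MAL, Junb fell with a log2 fold change of -0.76 ± 0.29 SE (edgeR adjusted p = 0.0434), and against CON the change of -0.48 ± 0.31 SE was not called (adjusted p = 0.216). The call against MAL was lost when any of 9 libraries was left out: MAL 1, MAL 3, MAL 4, or any of MAL-BG 1, 3, 4, 5, 6 and 7, with log2 fold changes between -0.55 and -0.78 (edgeR adjusted p = 0.0591 to 0.125). It was also lost with the size factors of DESeq2 (-0.72, adjusted p = 0.0551), without a filter on low counts (-0.74, adjusted p = 0.0559), and with libraries scaled to an equal mean log2 CPM, without (-0.51, adjusted p = 0.192) or with (-0.62, adjusted p = 0.125) offsets for length and GC content.

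Jund (chr8:70697739-70700616, plus strand), the Jun gene usually expressed without a stimulus, was the one gene of the 10 with a higher mean in MAL-BG. Its level was 3877, 2042, 2096 and 1856 CPM in CON 1 to 4, and 2168, 1894, 2004, 3205 and 1682 CPM in MAL 1 to 5. In MAL-BG it ran from 2132 to 7872 CPM around a median of 3249 CPM. Of the MAL-BG libraries, 5 of 7 were above every MAL library and 3 of 7 above every CON and MAL library, so the groups overlapped. Complete separation with MAL-BG higher held for 9.83% of all genes tested against CON, 7.86% against MAL and 6.17% against both together. Jund rose 1.8-fold against MAL (log2 fold change 0.85 ± 0.29 SE, edgeR adjusted p = 0.0277). Against CON the log2 fold change of 0.67 ± 0.32 SE was not called (adjusted p = 0.0918). The sign of both turned when libraries were scaled by the summed counts of the microglia markers, to -0.13 against MAL and -0.36 against CON. That scaling shifted the median of all genes to -1.02 and -1.11, and relative to these medians Jund stood at 0.89 and 0.75.

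The call of Jund against MAL was lost without MAL 1 (log2 fold change 0.83), MAL 2 (0.79), MAL 3 (0.80), MAL 5 (0.75) or MAL-BG 2 (0.62), with edgeR adjusted p = 0.0526 to 0.0721. It was also lost without MAL-BG 2, 5 and 7, the libraries with the largest summed neutrophil markers (0.54, adjusted p = 0.156). Against CON, Jund was called without CON 1 (0.96, adjusted p = 0.0229) and without MAL-BG 6 (0.78, adjusted p = 0.0449). By the merged exons of GENCODE vM21, Jund also has the shortest length but for Ier2 (1668 bases) and the highest GC content (67.1%) of the 10. Its RefSeq span is longer, and its place among the values per kb below depends on the length used. The offsets were not tested with another length. With offsets for length and GC content in the fit, Jund differed by 0.85 from CON and by 0.82 from MAL on the log2 scale. An annotated antisense gene, Gm11175, covers 877 bases of Jund exons and is not a row of the table. The strand option of the counting is not given in the sources used here, so reads from this antisense gene cannot be told apart from those of Jund. Smaller overlaps on the other strand are annotated between exons of Jun and the antisense gene Junos (232 bases) and of Junb and Prdx2 (173 bases).

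Within each library, the Jun paralogs were also compared by their shares of the summed Jun, Junb and Jund counts, which no scaling of libraries changes and for which no test was run. Jund made up 22.2% to 27.4% of them in CON, 16.9% to 20.9% in MAL and 26.9% to 45.3% in MAL-BG. MAL-BG was above MAL in every library and overlapped CON only through MAL-BG 6. Junb made up 34.4% to 38.5% in CON, 34.5% to 37.3% in MAL and 18.5% to 29.1% in MAL-BG, and MAL-BG was below both groups without overlap. Jun made up 35.2% to 43.4%, 41.8% to 48.4% and 26.8% to 54.6%, the widest range being that of MAL-BG. How often shares of other genes lie apart between the groups was not counted.

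**Figure D3:**
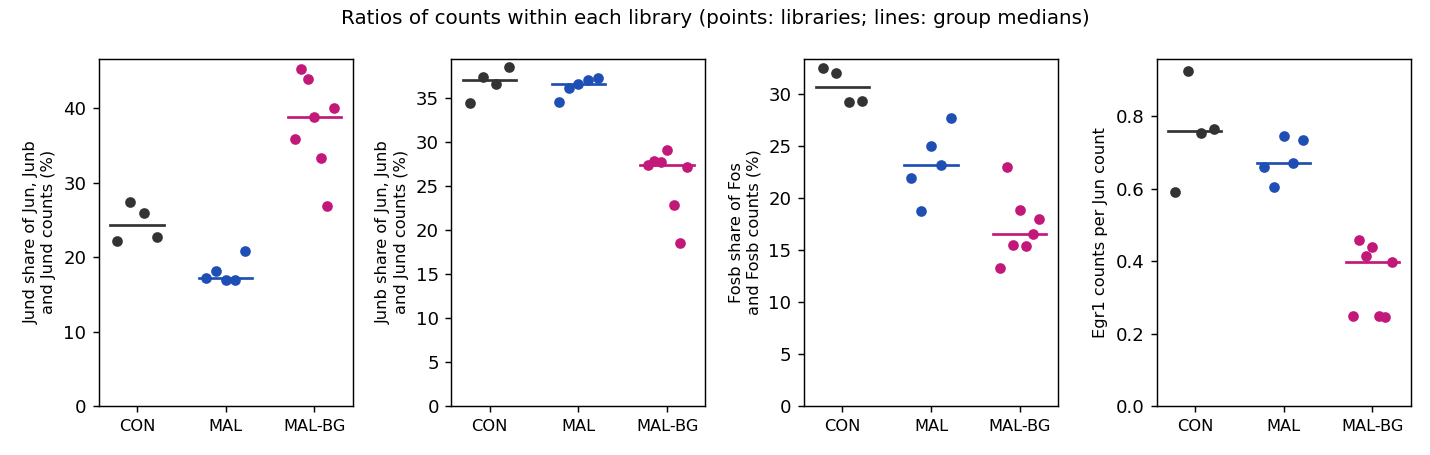
Ratios of counts within each library (points, in the order of library numbers) with group medians (lines): the shares of Jund and of Junb in the summed Jun, Junb and Jund counts, the share of Fosb in Fos plus Fosb (all in percent), and Egr1 counts per Jun count. In MAL-BG the Jund share was 26.9% to 45.3%, the Junb share 18.5% to 29.1%, the Fosb share 13.3% to 23.0% and the Egr1 ratio 0.246 to 0.458. Only the Junb share and the Egr1 ratio of MAL-BG lay apart from both other groups, and how often ratios of other genes do so was not counted.

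Divided by the length of the merged exons of each gene in GENCODE vM21 (CPM per kb), levels can be compared between genes as far as those lengths hold. In CON the order ran from Junb (mean 1620 CPM per kb) through Jund (1480), Jun (1290), Fos (1270), Atf3 (942), Btg2 (909), Egr1 (648), Ier2 (616) and Nr4a1 (283) to Fosb (215). In MAL the top places were held by Junb (1960), Jun (1790) and Fos (1690), and Jund came after them (1310). In MAL-BG Jund led by these lengths (2360), ahead of Junb (1160), Jun (1130) and Fos (927), and Fosb was last (75.4).

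Neighbours in these orders overlapped in their ranges, except that Ier2 was above Nr4a1 in CON and Atf3 above Nr4a1 in MAL without overlap. Library by library, Jund was the leading gene of the 10 in 6 of 7 MAL-BG libraries and Jun in the remaining one, MAL-BG 6. Junb led in 3 of 4 CON libraries and in 4 of 5 MAL libraries. These ranks do not depend on the scaling of libraries, but they rest on the exon lengths used. The length of Junb (2301 bases) exceeds its RefSeq span, and that of Jund (1668 bases) is shorter than its RefSeq span. Both differences place Jund higher relative to Junb. With the RefSeq spans as lengths, the MAL-BG mean of Junb is above that of Jund, so the lead of Jund rests on the GENCODE lengths.

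Egr1 codes for a zinc finger factor that kinase signals through SRF and TCF induce within minutes. It was measured at 4469, 2433, 2287 and 2432 CPM in CON 1 to 4 and at 4023, 2889, 4119, 5864 and 2476 CPM in MAL 1 to 5. In MAL-BG it ran from 709 to 2133 CPM with a median of 1065 CPM. Every MAL-BG library was below every CON and MAL library, and Egr1 was the single gene of the 10 for which this held. Complete separation from MAL in that direction held for 8.95% of all genes tested, and from CON and MAL together for 6.36%. Egr1 fell 2.34-fold against CON (log2 fold change -1.23 ± 0.29 SE, edgeR adjusted p = 0.00291) and 3.12-fold against MAL (-1.64 ± 0.28 SE, adjusted p = 0.000271).

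Set against Jun in the same library, Egr1 stood at 0.59 to 0.926 counts per Jun count in CON and 0.604 to 0.746 in MAL. In MAL-BG the ratio was 0.246 to 0.458, below both groups without overlap. Of the 10 genes, Egr1 fell most against MAL, and Jun was the one not called there. Atf3 per Jun count was 0.378 to 0.641 in CON, 0.254 to 0.53 in MAL and 0.175 to 0.319 in MAL-BG, where CON stood apart from MAL-BG and MAL overlapped both. No test of these ratios was run, and how often ratios of other genes lie apart between the groups was not counted.

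Nr4a1 (Nur77, chr15:101253902-101274795, plus strand) is an orphan nuclear receptor whose gene is switched on by many of the same signals. Its level was 881, 963, 973 and 1153 CPM in CON 1 to 4 and 716, 644, 738, 842 and 937 CPM in MAL 1 to 5. MAL-BG ran from 183 to 705 CPM around a median of 388 CPM. The MAL-BG libraries were below all CON libraries, and MAL-BG 2 was the one that overlapped MAL. Nr4a1 fell 2.53-fold against CON (log2 fold change -1.34 ± 0.25 SE, edgeR adjusted p = 0.000511) and 1.98-fold against MAL (-0.99 ± 0.24 SE, adjusted p = 0.00319). Its spread in CON was the smallest of the 10 genes (993 ± 114 CPM, SD, n = 4).

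Ier2 (chr8:84661331-84662852, minus strand) codes for a nuclear protein of the early growth response. It stood at 1521, 708, 740 and 779 CPM in CON 1 to 4 and at 1283, 1120, 1359, 2440 and 771 CPM in MAL 1 to 5. In MAL-BG it ran from 203 to 978 CPM with a median of 378 CPM. MAL-BG 2 was the single MAL-BG library within the range of the others. Ier2 fell 2.94-fold against MAL (log2 fold change -1.56 ± 0.34 SE, edgeR adjusted p = 0.00182) and 1.97-fold against CON (-0.98 ± 0.36 SE, adjusted p = 0.035). The call against CON was lost without CON 1 (-0.67, adjusted p = 0.143), MAL-BG 1 (-0.91), MAL-BG 5 (-0.94), MAL-BG 6 (-0.85) or MAL-BG 7 (-0.96).

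Btg2 (chr1:134074865-134079155, minus strand) is an early response target of p53 and growth signals and slows the cell cycle. Its level was 3945, 1905, 2005 and 2114 CPM in CON 1 to 4, and 3150, 2330, 2877, 4190 and 2124 CPM in MAL 1 to 5. In MAL-BG it ran from 1119 to 2856 CPM around a median of 1651 CPM. Of the MAL-BG libraries, 4 of 7 were below all the others, and the rest fell within the CON and MAL range. Btg2 fell against MAL (log2 fold change -0.72 ± 0.25 SE, edgeR adjusted p = 0.0261) but was not called against CON (-0.48 ± 0.26 SE, adjusted p = 0.146). The call against MAL was lost without MAL 4 (-0.56, adjusted p = 0.0707) or MAL-BG 1 (-0.65, adjusted p = 0.0638). With offsets for length and GC content, Btg2 was called against CON (-0.65), with an edgeR adjusted p just under the threshold.

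Libraries that were high for 1 gene tended to be high for the others. CON 1 was the highest CON library for 9 of the 10 genes and the lowest for Nr4a1. MAL 4 was the highest MAL library for 9 of 10, and MAL-BG 2 the highest MAL-BG library for 10 of 10. MAL-BG 3 was lowest for 6 and MAL-BG 6 for the remaining 4. The mean deviation from the group mean over the 10 genes was 0.60 on the log2 scale in both CON 1 and MAL 4, 0.88 in MAL-BG 2 and -0.74 in MAL-BG 3. CON 1 and MAL 4 also had the highest summed microglia markers of their groups (26770 and 29080 CPM). MAL-BG 2 did not, with 44880 CPM against 48490 in MAL-BG 1 and 48230 in MAL-BG 7. The mean deviation of MAL-BG 1 was -0.18. The part of microglia markers in the genes' levels was not tested.

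**Figure D4:**
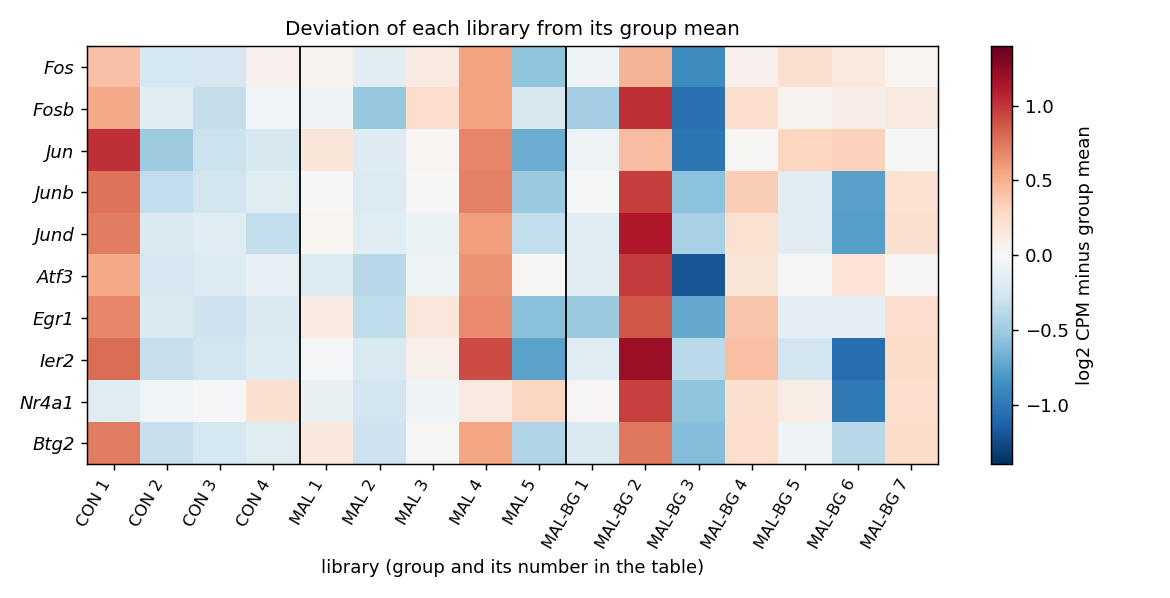
Deviation of each library (columns) from the mean log2 CPM of its group for each of the 10 genes (rows), red above and blue below the group mean, on a scale of log2 CPM. CON 1, MAL 4 and MAL-BG 2 are red for nearly all genes (mean deviations 0.60, 0.60 and 0.88) and MAL-BG 3 is blue (-0.74), while Nr4a1 does not follow the others in CON 1.

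Without CON 1 and MAL 4, a choice made after seeing the data, 5 of the 10 genes were called against CON, 1 of them higher (Jund), and 7 against MAL, 1 of them higher (Jund). Without the 3 MAL-BG libraries with the largest neutrophil markers, 5 were called against CON and 8 against MAL, all of them lower. Fosb, Atf3, Egr1 and Nr4a1 were called against both groups whichever of the 16 libraries was left out. Fos was called against MAL in all of these fits and in none against CON.

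The within-group SD of log2 CPM was 0.395 (Fos) to 0.639 (Ier2) over the 10 genes, against a median of 0.322 over all genes tested. Among the 146 genes at least as abundant as Nr4a1, the median was 0.303. The 10 genes thus had more spread between replicates than most genes of their abundance.

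By the deviations of log2 CPM from group means over the 16 libraries, the genes outside the 10 most like Fos were Dusp1 (Pearson r = 0.933, Spearman rho = 0.891), Rhob (r = 0.918, rho = 0.874) and Socs3 (r = 0.899, rho = 0.853). Those most like Btg2 were Zfp36 (r = 0.971, rho = 0.959), Klf2 (r = 0.958, rho = 0.971) and Mepce (r = 0.953, rho = 0.894). These are descriptions, picked as the highest of all genes tested, and they carry no p. The part of library preparation and depth in them was not tested.

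Genes that pair with, resemble or act upstream of the 10 were counted in lists chosen with earlier results of these data known. Against CON, 38 genes over the 6 lists were called, 30 lower and 8 higher, and against MAL 32 were called, 26 lower and 6 higher. The lists held 10, 14, 10, 19, 24 and 10 tested genes, in the order described below. Of all genes tested, 21.7% were called lower and 11.4% higher against CON, and 20.2% lower and 10.2% higher against MAL. MAL against CON gave 0 calls in each list, as it did over all genes.

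Among the other AP-1 and small Maf genes, 10 of 11 could be tested, and 6 fell and 1 rose against CON, while 4 fell and 0 rose against MAL. Over the list, the median log2 fold change stood at -0.80 for CON and -0.29 for MAL. Maff, a small Maf protein without an activation domain, went from 49.1 ± 6.34 CPM in CON (SD, n = 4) and 24.9 ± 11.2 in MAL (n = 5) to 4.73 ± 0.843 in MAL-BG (n = 7). Maff thereby had the lowest fold change of the list, -3.37 on the log2 scale against CON (edgeR adjusted p = 3.71e-07) and -2.39 against MAL (adjusted p = 6.42e-06). Fosl2, which codes for the Fos-related antigen Fra-2, also fell (-1.85 and -1.13, adjusted p = 3.34e-06 and 6.85e-05), as did Mafk (-1.01 and -0.65, adjusted p = 8.24e-06 and 0.000161). Batf3, an AP-1 factor of dendritic cells, was the one to rise against CON (0.88, edgeR adjusted p = 0.032).

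All 14 other Egr, Nr4a, Klf and Ier genes were tested, and 6 fell against CON and 5 against MAL, with none rising. The median log2 fold change was -0.61 and -0.46. Both remaining Nr4a receptors fell in both comparisons. Nr4a2 stood at -2.47 on the log2 scale against CON (edgeR adjusted p = 4.65e-05, and 0.00124 against MAL), and Nr4a3 at -2.90 and -1.43 (adjusted p = 3.6e-05 and 0.00434). Klf10, a TGF-beta induced zinc finger factor, went from 70 ± 5.31 CPM in CON and 58 ± 7.6 in MAL to 21 ± 2.18 in MAL-BG. Egr4 also fell in both (edgeR adjusted p = 0.00018 against CON), from a mean of 1.35 CPM in CON to 0.0465 CPM in MAL-BG, where its counts are so few that the size of the fitted change depends on the prior count. Klf2, among the genes most like Btg2 across libraries, was not called, with a log2 fold change of 0.56 against CON.

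Of the Btg and Tob relatives of Btg2 and the CCR4-NOT deadenylase to which they bind, 10 of 12 were tested. In each comparison 2 were called lower and 1 higher, close to the shares of all genes tested. Those shares were 21.7% lower and 11.4% higher against CON, and 20.2% and 10.2% against MAL. Tob1 (log2 fold change -2.08 against CON and -1.54 against MAL) and Tob2 (-1.05 and -0.98) fell in both comparisons, with edgeR adjusted p = 0.00259 or below. Cnot8, a catalytic subunit, rose in both (0.91 and 0.75). The list median was -0.26 against CON and -0.23 against MAL.

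Of the other early response and feedback genes, 19 were tested, and 11 fell and 2 rose against CON, and 10 fell and 0 rose against MAL, with list medians of -1.08 and -1.17. Socs3, an inhibitor of cytokine signaling, went from 1220 ± 427 CPM in CON and 1310 ± 248 in MAL to 279 ± 81.2 in MAL-BG (edgeR adjusted p = 1.22e-05 and 8.35e-06). Nfkbia, the inhibitor of NF-kappaB, fell from 1710 ± 449 and 1660 ± 592 CPM to 647 ± 298 CPM, and its relative Nfkbiz from 1020 ± 195 and 905 ± 233 CPM to 166 ± 50.3 CPM. Among the phosphatases that switch off MAP kinases, Dusp1 (-1.08), Dusp2 (-1.82) and Dusp5 (-3.19) fell against CON and also against MAL. Dusp6 rose against CON (0.90, edgeR adjusted p = 0.0119) and was not called against MAL (0.14). Zfp36 (4560 ± 1960 CPM in CON and 3740 ± 1030 in MAL-BG) and Rhob (3620 ± 1230 and 3700 ± 903) were not called in either comparison.

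The 24 tested genes of the upstream kinases and of the SRF, TCF and CREB factors had 4 called lower and 2 higher against CON (of all genes tested, 21.7% and 11.4%), 2 lower and 2 higher against MAL (of all genes, 20.2% and 10.2%), and list medians of -0.03 and 0.00. The TCF genes moved in both directions. Elk4 fell (log2 fold change -1.83 against CON and -1.82 against MAL), Elk1 fell (-0.91 in both), and Elk3 rose (0.90 and 0.77). Mapk3, which codes for the kinase ERK1, rose from 208 ± 21.9 CPM in CON and 195 ± 27.9 in MAL to 339 ± 65.7 in MAL-BG.

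Heat shock genes, which dissociated tissue is known to express, were also counted. Of 10 tested, 1 fell and 2 rose against CON, and 3 fell and 3 rose against MAL. Among all genes tested, 21.7% were called lower and 11.4% higher against CON, and 20.2% and 10.2% against MAL. Hspa1b rose in both (log2 fold change 1.36 and 1.44), as did Hsp90aa1 (0.99 and 0.89), while Hsph1 fell in both (-1.29 and -1.25).

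**Figure D5:**
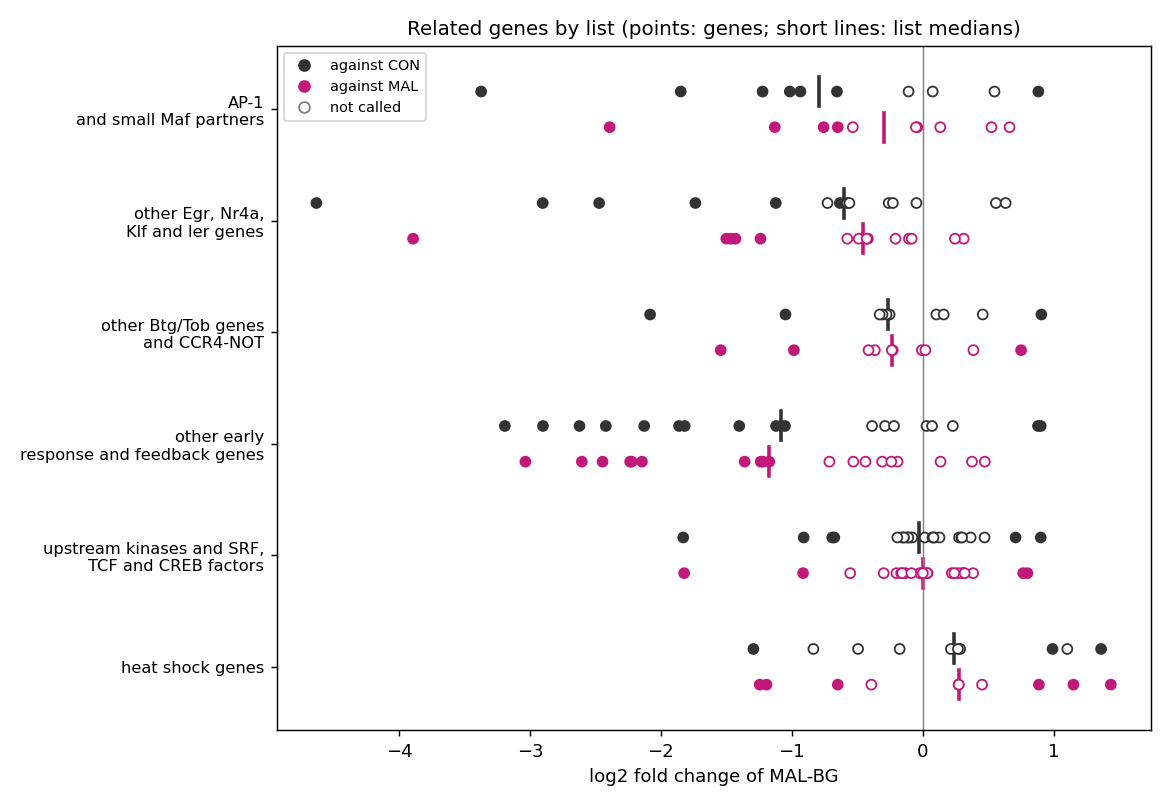
Log2 fold change of MAL-BG against CON (dark) and against MAL (magenta) for the tested genes of each of the 6 lists, with filled points for called genes and short vertical lines at list medians. The points of the early response and feedback list reach furthest to the left as a group (medians -1.08 and -1.17), those of the upstream list centre near 0 (medians -0.03 and 0.00), and the leftmost single point is Egr4 (-4.63), a fitted value that rests on few counts in MAL-BG.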

How the data were processed

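RNA-Seq of CD11b+ brain cells was analysed for the CON (n = 4), MAL (n = 5) and MAL-BG (n = 7) groups. From stranded poly(A) libraries, the authors aligned read pairs with STAR to GRCm38.p6 and obtained the deposited raw counts per gene, not normalized, with HTSeq. The strand option and annotation of this step are not given in the sources used here. Column names gave the groups. The authors' code includes a batch term, but the batch of each library is named in no source used here, so none was fitted.

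R 4.3.3 was used throughout. Rows with over 10 counts in 4 or more libraries entered the test (14565 genes). TMM scaling preceded a single edgeR 4.0.16 quasi-likelihood fit of all groups, with Benjamini-Hochberg adjustment over every gene tested in a comparison. A call required adjusted p below 0.05 together with an absolute log2 fold change over 0.58. Log2 CPM used a prior count of 2. No replicate pair matched within counting noise, and errors are SD or SE between libraries. Scripts were tested on simulated data. Lengths are merged exons of GENCODE vM21. Coordinates and promoters are from RefSeq on GRCm38.p6.

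The members and gene lists were chosen with earlier results of these data known. All 10 members were named, and other genes were those called in their lists, those with the largest changes, and those most like Fos or Btg2. Alternatives were DESeq2 1.42.0, other scalings, other filters, calls without the fold threshold, fits limited to the pair compared, thinned libraries, length and GC offsets (known for 96.3% of genes), and each library left out in turn. Removal of CON 1 with MAL 4, and of the 3 MAL-BG libraries with the largest neutrophil markers, was added after seeing the data. Marker lists were microglia, neutrophil, monocyte, border macrophage, lymphocyte, endothelium, mural, neuron, astrocyte, oligodendrocyte, and choroid plexus.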

Additional observations from a re-analysis of the deposited data

Results flagged for a closer look

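A value was set apart where the highest or lowest library of a group stood further from its nearest neighbour than Dixon's 95% critical value allows, and chance alone flags about 1 in 20 groups. Of 30 groups of values (10 genes in 3 groups), 8 were set apart, and 7 of them were in the same library. CON 1 had 7574 CPM of Jun against 3180.7 in the next CON library, 5995.4 of Junb against 3151.8, 3877.3 of Jund against 2096.4, 2865.7 of Atf3 against 1832.8, 4469.1 of Egr1 against 2432.7, 1521.2 of Ier2 against 779, and 3944.6 of Btg2 against 2113.9. The genes are not independent of each other within a library. CON 1 also had the lowest summed neuron markers of the CON group (91.3 CPM) and the highest summed microglia markers (26770 CPM), and the part of these in the levels was not tested. The remaining value was Jund in MAL-BG 2, at 7871.9 CPM against 4225.1 in the next MAL-BG library.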

How the results depend on the processing

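No paired analysis was possible because the columns carry running numbers that match no sample title, so libraries of different groups share no replicate number of their own. With library sizes set by the summed microglia marker counts, 9 of the 10 genes were called against CON (0 higher), as were 11410 of all genes (41 higher) against CON and 10849 (36 higher) against MAL, and 74 and 75 genes of the 6 lists. The log2 fold change of Jund against MAL turned to -0.13 under this scaling. The median of all genes then stood at -1.11 against CON and -1.02 against MAL by construction, since those markers were higher in MAL-BG. With library sizes set to an equal mean log2 CPM the medians were 0.25 and 0.24, and 61.4% and 62.2% of all calls were higher in place of 34.4% and 33.4%. With length and GC offsets added to that scaling the medians were 0.21 and 0.20, and 58.1% of calls were higher in both comparisons. Under both of these, 4 of the 10 genes were called lower and Jund higher against CON, and Ier2 was not called against CON. Fos, Junb and Btg2 were not called against MAL under the equal mean (Fos -0.61, adjusted p = 0.051). The count of the 10 genes was 4 to 5 against CON and 7 to 10 against MAL as each of the 16 libraries was left out. Over the 10 genes and all alternatives, the side of the threshold and the direction held in 281 of the values against CON, with 11 newly called and 8 no longer called, and in 268 against MAL, with 5 newly called, 26 no longer called and 1 turned. These values are not independent. Many alternatives are close to the main fit, and leaving out a library of the group not compared hardly moves a value. Between MAL and CON, no alternative called a gene of the 10. Fosb, Atf3, Egr1 and Nr4a1 stayed called against both groups under every alternative run, with Fosb between -2.58 and -1.12 against CON. With 4 to 7 libraries a group and a spread above that of most abundant genes, the missed calls of Fos, Jun, Junb, Jund and Btg2 against CON do not show that these genes did not differ. The same holds for the lack of calls between MAL and CON.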

Other observations

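Among all genes tested, 21.7% were called lower and 11.4% higher against CON, and 20.2% and 10.2% against MAL. Single calls in a cell type list do not stand out from these shares. Of the remaining cell type lists, monocyte markers had 0 of 7 called against CON and 1 lower against MAL. Their sums were 260 to 1280 CPM in MAL-BG and 198 to 727 in CON. Border macrophage markers had 1 of 7 lower against CON and 2 lower against MAL, and lymphocyte markers, at 42.6 to 75.9 CPM in MAL-BG and 20.6 to 35 in CON, had 2 of 5 higher against CON. Endothelial markers had 2 of 7 higher against CON and 4 against MAL (sums of 1100 to 3540 CPM in MAL-BG, 509 to 1780 in CON and 475 to 1340 in MAL), mural markers had 1 of 6 lower against CON and 2 lower and 2 higher against MAL, astrocyte markers had 3 of 5 lower in both comparisons (median log2 fold changes -2.14 and -2.19), and oligodendrocyte markers had 3 of 5 higher in both (sums of 472 to 1160 CPM in MAL-BG and 395 to 998 in CON).

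Nr4a1 was the gene of the 10 whose MAL libraries sat lowest relative to CON. In 4 of 5 MAL libraries it was below the lowest CON library, with 775 ± 115 CPM in MAL (SD, n = 5) and 993 ± 114 CPM in CON (SD, n = 4). The log2 fold change of -0.36 was not called by edgeR (adjusted p = 0.999). The lowest MAL-BG levels of Nr4a1 and Ier2 were both in MAL-BG 6 (183 and 203 CPM), a library in which Jun (4329 CPM) was above the MAL-BG median.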
